A study of Mus musculus with 20 samples.

Results

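Small interfering RNA (siRNA) against p53 was applied to cell line 14, a line established from a primary mouse osteosarcoma, a malignant tumour of bone, that carries a mutant Trp53. The comparison holds 2 of the 20 libraries of the series, chosen by their labels: the p53 siRNA library and the control library, 1 each. The other 18 libraries are primary osteosarcomas. Bulk RNA sequencing measured the level of every gene as counts, here scaled to each library's total (CPM, counts per M; M stands for megacounts).

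Both libraries of the line are labelled p53R245/O. The siRNA library is labelled as a p53 knockdown, and the control library as heterozygous mutant p53 with LOH (loss of heterozygosity). The labels write the mutant without its new residue; R245W is taken from the tumours, whose labels give no other mutant at that codon. Both groups therefore share the mutant allele and the recorded loss of the other allele, and both come from 1 line. The labels give neither the sequence, dose or time of the siRNA nor what the control cells received, so an effect of lower p53 and an effect of the transfection itself cannot be told apart. For the tumours, 3 came from p53R245W/+ mice (here R245W) and 4 from p53+/- mice, which lack 1 Trp53 allele (here p53 het). Another 6 from p53R172H/+ and 5 from p53R270H/+ mice enter only the values over all 18 tumours, the pairs of 1 genotype and the shared edgeR fit. All are of mixed C57BL/6J and 129S/SvJae strain, and age is not given.

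p53, the product of Trp53, is a transcription factor that stress and DNA damage stabilise. It binds DNA at paired half-sites and raises genes that halt the cell cycle (Cdkn1a), trigger apoptosis (Pmaip1, Bbc3) and limit p53 itself (Mdm2). Hotspot missense mutants in its DNA-binding domain lose much of this activity, accumulate as protein in tumours and are studied for activities of their own; the knockdown asks which transcripts depend on the mutant in this line.

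The codon that gives the allele its name lies in exon 7 of 11 of Trp53, on chromosome 11. The reference sequence around it, from the GENCODE M21 transcript Trp53-203 on GRCm38 (chr11:69589189-69589233, + strand), is shown because it is the site of the mutation; the capitals mark the arginine codon that R245W changes.
Trp53 around the R245W codon: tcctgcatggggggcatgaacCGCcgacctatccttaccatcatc
It is the reference sequence and not a sequence read from the line.

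Upstream sequences are shown for genes that stand for the 3 groups described further on: a p53 target, interferon response genes and stress response genes. They come from RefSeq promoter windows on GRCm38.p6, which run from 250 bases before to 50 bases after the annotated start. Each line is 60 bases of the sense strand of the gene, all of it upstream of the start, and the capitals mark the motif on either strand. In Cdkn1a they mark CATG, 6 bases of any kind and CATG, the core letters of a pair of p53 half-sites (chr17:29090908-29090967, + strand). In Ifit3 (chr19:34583365-34583424, + strand), Ifit1 (chr19:34640769-34640828, + strand) and Cxcl10 (chr5:92349068-92349127, - strand) they mark TTTC, 2 bases of any kind and TTTC, or the same on the other strand, the core of the interferon-stimulated response element. In Chac1 (chr2:119351023-119351082, + strand) and Atf3 (chr1:191183410-191183469, - strand) they mark TGATGNAA, the core of the element bound by ATF4 with C/EBP partners.
Cdkn1a: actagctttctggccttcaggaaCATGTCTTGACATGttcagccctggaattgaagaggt
Ifit3: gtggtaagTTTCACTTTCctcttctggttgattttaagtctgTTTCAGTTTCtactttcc
Ifit1: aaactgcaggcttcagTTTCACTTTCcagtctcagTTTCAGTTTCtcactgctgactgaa
Cxcl10: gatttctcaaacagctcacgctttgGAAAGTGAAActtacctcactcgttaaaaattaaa
Chac1: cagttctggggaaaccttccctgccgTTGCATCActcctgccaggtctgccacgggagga
Atf3: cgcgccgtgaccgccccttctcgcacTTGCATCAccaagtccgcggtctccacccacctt
A match is a description of these letters and not a measured binding site.

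The libraries held 73.4 M counts for p53 siRNA and 64.1 M for the control. The floor for a gene without counts, 3 counts, equals 0.0409 CPM in the siRNA library and 0.0468 CPM in the control library. The tumour libraries held 20.1 to 29.2 M counts. Mitochondrially encoded genes took 2.82% of the siRNA library and 2.88% of the control library, and a list of non-polyadenylated RNAs took 1.47% of the siRNA library and 1.26% of the control library. With 1 library per condition there is no spread between cultures, so no p-value is given for the line, and the 95% intervals of its ratios cover counting error only.

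The Trp53 transcript itself was lower in the siRNA library. Trp53 (chr11:69580359-69591873, GRCm38) had 30.6 CPM with p53 siRNA, against 94.9 CPM in the control library, from 2242 and 6082 counts. The ratio of the CPM was 0.322 (95% interval 0.307 to 0.338), and the log2 ratio of (CPM + 1), the scale used for every log2 ratio here, was -1.60. It was the lowest log2 ratio of all genes that passed the filter. Wrap53, which overlaps Trp53 on the opposite strand, had 17.6 CPM with siRNA and 16.8 CPM in the control library; whether the counting used strand is not given, so reads in the overlap cannot be assigned with certainty. The knockdown was partial, as 32.2% of the control level of the transcript remained.

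Few other transcripts moved. Of 13307 genes with a mean of at least 1 CPM over the 2 libraries, 99 fell past 1.5-fold with p53 siRNA (0.744%) and 51 rose (0.383%), or 1.13% either way. Past a fold is judged on the log2 ratio of (CPM + 1), so a plain CPM ratio just over a fold may stay uncalled. With DESeq2 size factors in place of library totals the split was 73 fallen and 64 risen genes. Most genes hardly differed: 58.0% lay within 1.1-fold and 84.9% within 1.2-fold of the control library, and the log2 ratios had a median of -0.02 and an SD of 0.19 across genes. The interval excluded 1 for all 99 fallen and all 51 risen genes. At this depth the filter and the fold fix that outcome, so it is no support for the calls. Over all 13307 genes the interval lay below 1 for 4254 and above 1 for 3189. This interval, of the plain CPM ratio, lay wholly past 1.5-fold for 66 of the fallen and 32 of the risen genes. Past 2-fold on the (CPM + 1) scale, 15 genes fell and 2 rose. As a yardstick for samples of 1 genotype, 34 pairs of tumours of the same genotype had 16.2% to 49.6% of genes past 1.5-fold (median 32.3%), at lower depth and in whole tumours.

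**Figure D1:**
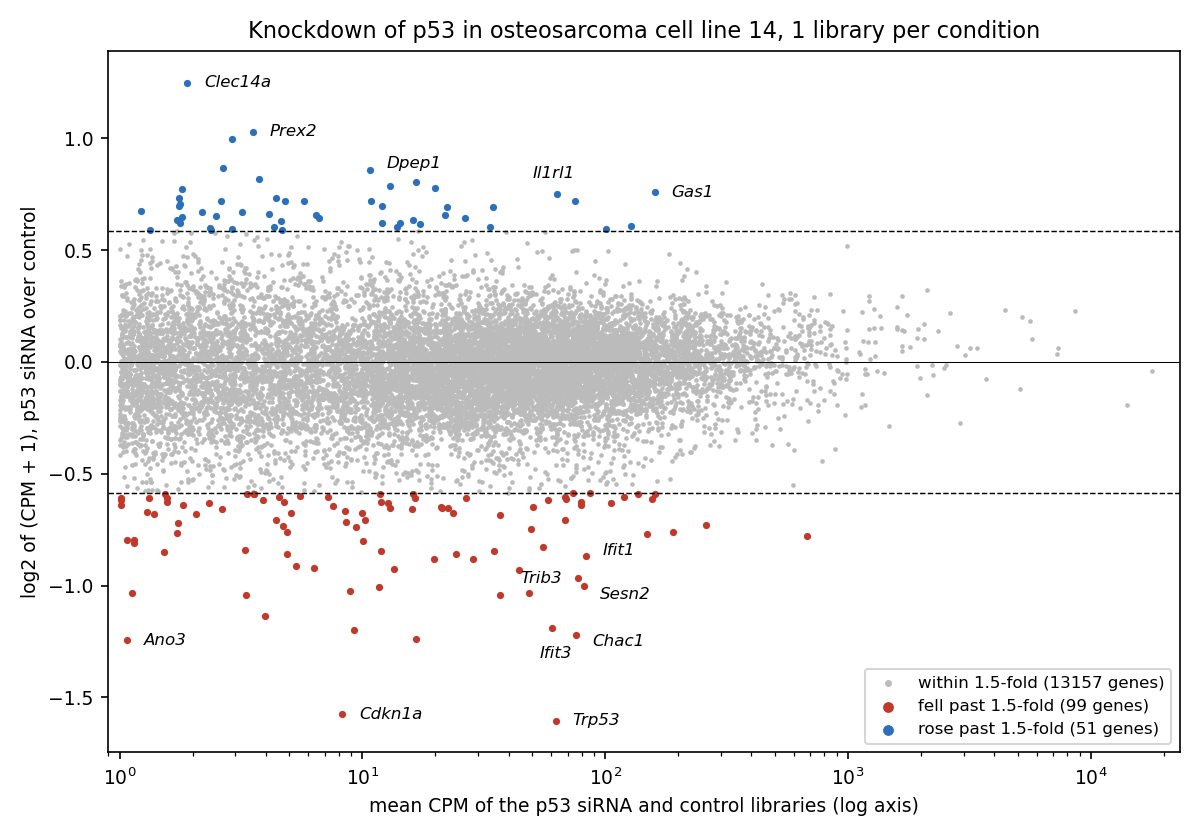
Each point is 1 of the 13307 genes that passed the filter, placed by its mean CPM over the 2 libraries (log axis) and its log2 ratio of (CPM + 1), p53 siRNA over control; dashed lines mark 1.5-fold. The 99 genes that fell lie below the lower line, with Trp53 (-1.60) and Cdkn1a (-1.57) lowest, and the 51 that rose reach 1.25 (Clec14a).

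Several of the genes that p53 raises were lower with p53 siRNA. Of 40 listed p53 target genes 38 passed the filter, of which 8 fell past 1.5-fold and none rose (21.1%, against 0.744% of all genes that fell). The median log2 ratio of the 38 was -0.26, against -0.02 for all genes. Of the 38, 29 were below 0 and 9 above, against 7299 and 6008 of all 13307 genes. The interval of the ratio lay below 1 for 24 and above 1 for 5, against 4254 and 3189 of all 13307 genes. Among members with a mean of at least 10 CPM the median was -0.11 and 3 fell, and with a pseudocount of 5 CPM in place of 1 CPM 4 fell.

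Cdkn1a, which encodes the cell cycle inhibitor p21, fell to 3.65 CPM with p53 siRNA, against 12.9 CPM in the control library (268 and 824 counts). Its CPM ratio was 0.284 (0.247 to 0.327), lower than that of Trp53 itself, and its log2 ratio -1.57. Cdkn1a lies at chr17:29090976-29100727, and 1 of its 2 promoter windows holds the paired half-site letters upstream of the start, as shown above. Mdm2, the ubiquitin ligase that degrades p53, had 83.8 CPM with p53 siRNA and 118 CPM in the control library. Its ratio of 0.709 (0.685 to 0.733) was below 1 but its log2 ratio of -0.49 did not reach the 1.5-fold threshold.

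The other fallen targets covered growth restraint, DNA damage response and apoptosis. Sesn2, a stress-induced inhibitor of mTORC1 signalling, had 53.9 CPM with p53 siRNA and 109 CPM in the control library (ratio 0.494, 0.475 to 0.514). Gadd45a, a DNA damage and growth arrest gene, had 30.2 CPM with p53 siRNA and 58.3 CPM in the control library (log2 ratio -0.93). Ccng1, cyclin G1, was the most abundant of the fallen targets, at 110 CPM with p53 siRNA and 187 CPM in the control library (-0.77).

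The remaining 4 fallen targets were low in the line, under a mean of 10 CPM, and are named although the naming rule passes over such levels. Pmaip1, which encodes the BH3-only protein Noxa, had 3.38 CPM with p53 siRNA and 7.26 CPM in the control library (-0.91). Eda2r, a death receptor family member, had 4.05 CPM with p53 siRNA and 8.55 CPM in the control library (-0.92). Trp53inp1 had 6.79 CPM with p53 siRNA and 11.99 CPM in the control library (-0.74). Ano3 had 0.232 CPM with p53 siRNA and 1.92 CPM in the control library, with a ratio of 0.121 (0.0681 to 0.201). Ano3 passed the filter through the control library alone, so it could pass only by differing.

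Other well known targets were within the fold. Bax, the apoptosis effector, had 26.6 CPM with p53 siRNA and 27.6 CPM in the control library. Fas had 24.8 CPM with p53 siRNA and 25.5 CPM in the control library, and Ccnd1, cyclin D1, had 231.5 CPM with p53 siRNA and 201.99 CPM in the control library. Sesn1, a relative of Sesn2, had the highest log2 ratio of the list, 0.27, at 49.2 CPM with p53 siRNA and 40.6 CPM in the control library. Of the listed targets under the filter, Cd80 had 0.245 CPM with p53 siRNA and 0.843 CPM in the control library, and Perp had 0.0954 CPM with p53 siRNA and 0.140 CPM in the control library.

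Among genes that regulate or cooperate with p53, only Trp53 itself passed the fold, out of 15 of 16 listed genes that passed the filter; Trp73 had no count in either library. Ep300, an acetyltransferase and coactivator, had 89.2 CPM with p53 siRNA and 122 CPM in the control library (log2 ratio -0.45). Mdm4, the partner of Mdm2, had 70.3 CPM with p53 siRNA and 92.9 CPM in the control library (-0.40). Cdkn2a, the locus of p16INK4a and p19ARF, had 243 CPM with p53 siRNA and 212 CPM in the control library (0.19). The median of the list was -0.08, and it was 0.02 once trends with transcript GC content and length were removed.

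Interferon response genes made up a second group of fallen transcripts. Interferons signal through receptors to transcription factors that bind the interferon-stimulated response element and raise antiviral genes. Of 29 listed genes 27 passed the filter, of which 8 fell past 1.5-fold (29.6%, against 0.744% of all genes) and none rose. The median log2 ratio was -0.52, 26 of the 27 lay below 0, and the interval of the ratio lay below 1 for the same number. Of all 13307 genes, 7299 lay below 0, and the interval lay below 1 for 4254. Summed over the 29 genes, the level was 1424 CPM with p53 siRNA and 2018 CPM in the control library.

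Ifit3, an antiviral protein that binds other members of its family, fell most of the listed genes. Ifit3 had 36.3 CPM with p53 siRNA and 84.2 CPM in the control library, a ratio of 0.432 (0.412 to 0.452). Its near-identical neighbour Ifit3b had 9.50 CPM with p53 siRNA and 23.8 CPM in the control library, and reads may be split between the pair in ways that make their separate levels uncertain. Ifit1, which binds viral RNA with foreign 5′ ends, had 58.7 CPM with p53 siRNA and 108 CPM in the control library (log2 ratio -0.87).

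Effectors, a chemokine and a feedback inhibitor were among the other fallen genes. Mx2, an antiviral GTPase annotated as a polymorphic pseudogene in GENCODE M21, had 19.7 CPM with p53 siRNA and 37.3 CPM in the control library (log2 ratio -0.88). Cxcl10, a chemokine that attracts T cells, had 24.7 CPM with p53 siRNA and 45.2 CPM in the control library (-0.84). Usp18, which removes ISG15 from proteins and dampens interferon receptor signalling, had 39.7 CPM with p53 siRNA and 71.2 CPM in the control library (-0.83). Rsad2, Oasl2 and Ifi44 completed the 8, with log2 ratios of -0.67, -0.61 and -0.60.

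Factors upstream of these genes were lower too but inside the fold. Stat2 had 82.4 CPM with p53 siRNA and 120 CPM in the control library (log2 ratio -0.54), and Irf9 had 72.8 CPM with p53 siRNA and 103 CPM in the control library (-0.50). Sensors of viral RNA stood close by: Ddx58, which encodes RIG-I, had 152 CPM with p53 siRNA and 219 CPM in the control library (-0.53). Ifnb1, interferon beta itself, was near the floor at 0.0273 CPM with p53 siRNA and 0.0936 CPM in the control library. Ccl5 was the 1 listed gene that passed the filter with a log2 ratio above 0, at 9.28 CPM with p53 siRNA and 9.07 CPM in the control library.

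Antigen presentation genes, many of which interferon also raises, did not pass the fold in either direction, against 1.13% of all genes (12 of 13 listed passed the filter, median -0.06). In a list of this size none is near that share, so it is no result about these genes. B2m had 442 CPM with p53 siRNA and 445 CPM in the control library, and Tap1, a peptide transporter subunit, had 14.2 CPM with p53 siRNA and 18.7 CPM in the control library (log2 ratio -0.37). Genes of RNA interference were within the fold as well, again near that share (11 of 11 passed the filter, median -0.12). Markers of lymphocytes were at or near 0 in both libraries: none of 10 passed the filter, 5 had no count in either library (Cd3e among them), and their summed level was 0.232 CPM with p53 siRNA and 0.343 CPM in the control library.

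Another group were genes of the integrated stress response, in which phosphorylation of the initiation factor eIF2α slows translation and favours the transcription factor ATF4. The list also held chaperones of the unfolded protein response. All 28 listed genes passed the filter, of which 5 fell past 1.5-fold (17.9%, against 0.744% of all genes) and none rose. The median log2 ratio of the whole list was -0.11, against -0.02 for all genes. Of the 28, 19 were below 0 and 9 above, against 7299 and 6008 of all genes.

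The fallen members were targets of ATF4 rather than chaperones. Chac1, which breaks down glutathione, had 45.1 CPM with p53 siRNA and 107 CPM in the control library, a ratio of 0.423 (0.406 to 0.441). Atf3, a stress-induced transcription factor, had 23.9 CPM with p53 siRNA and 50.2 CPM in the control library (log2 ratio -1.04). Trib3, a pseudokinase, had 52.1 CPM with p53 siRNA and 103 CPM in the control library (-0.97). Ppp1r15a, the phosphatase subunit GADD34 that reverses the response, had 62.1 CPM with p53 siRNA and 97.5 CPM in the control library (-0.64). The fifth was Sesn2, which is also on the p53 target list.

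Atf4 and the amino acid genes of the pathway were within the fold. Atf4 had 497 CPM with p53 siRNA and 640 CPM in the control library (log2 ratio -0.37). Ddit3, which encodes CHOP, had 86.1 CPM with p53 siRNA and 112 CPM in the control library (-0.38), and Asns, asparagine synthetase, had 216 CPM with p53 siRNA and 250.3 CPM in the control library (-0.21). Chaperones lay at or above the control level: Hspa5, the chaperone BiP, had 1245 CPM with p53 siRNA and 1170 CPM in the control library (0.09), and Calr, calreticulin, had 1725 CPM with p53 siRNA and 1454 CPM in the control library (0.25).

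The 3 groups hold 20 of the 99 fallen genes, and 79 fallen genes are on none of these lists. Of the 79, Trp53 and Ifit3b had the lowest ratios among those with a mean of at least 10 CPM. Pld3, an endolysosomal nuclease, came next, with 31.6 CPM with p53 siRNA and 65.8 CPM in the control library (log2 ratio -1.03). Dusp8, a phosphatase of MAP kinases, had 7.43 CPM with p53 siRNA and 15.9 CPM in the control library (-1.01). Ddx60, an interferon-induced helicase, and Apobec1, a cytidine deaminase, had log2 ratios of -0.92 and -0.86.

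Further fallen genes were picked out after their values were seen. Rnf213, a large ubiquitin ligase that interferon raises, was the most abundant fallen gene, at 498 CPM with p53 siRNA and 856 CPM in the control library (log2 ratio -0.78). Txnip, an inhibitor of glucose uptake, had 196 CPM with p53 siRNA and 326 CPM in the control library (-0.73). Gdf15, a secreted stress cytokine, had 5.53 CPM with p53 siRNA and 12.3 CPM in the control library (-1.02). Slfn5, Parp14, Irgm1, Tor3a and Rtp4 are also known as interferon-induced and had log2 ratios of -1.20, -0.63, -0.63, -0.71 and -0.59; they were not on the interferon list. Ifitm2, another interferon-induced gene outside the list, rose, at 121 CPM with p53 siRNA and 79.8 CPM in the control library (0.60).

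**Figure D2:**
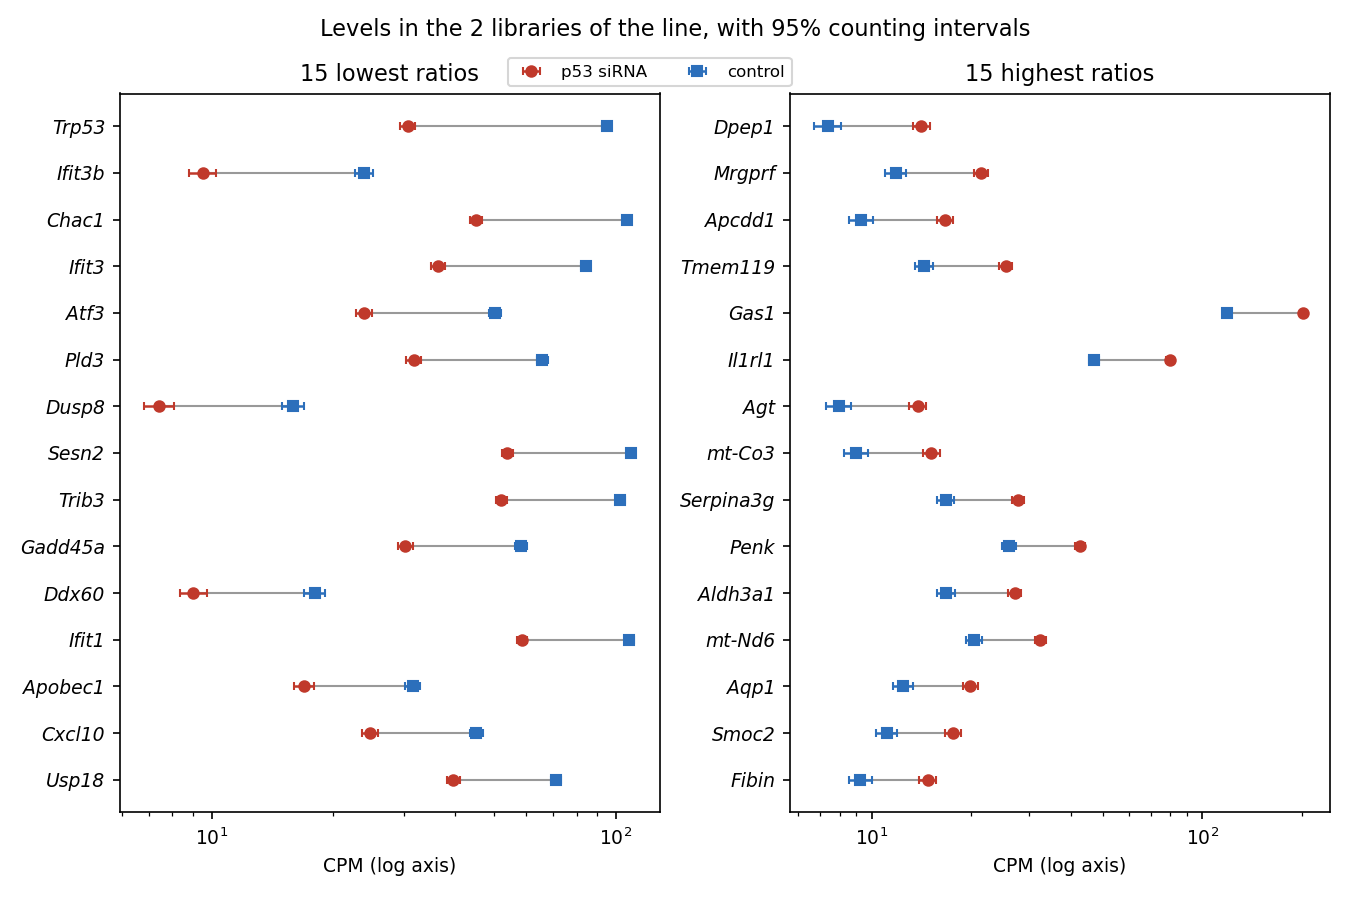
CPM (log axis) of the 15 genes with the lowest and the 15 with the highest log2 ratio among named genes with a mean of at least 10 CPM, in the p53 siRNA library (circles) and the control library (squares), with exact 95% Poisson intervals. The genes were picked by their ratios, so that no interval of 1 library reaches that of the other is no support for them. The gap is widest for Trp53 (30.6 CPM with p53 siRNA, 94.9 CPM in the control library).

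Clustered histone genes of the replicating cell lay below the control level together, mostly within the fold. All 14 of the 16 listed genes that passed the filter had log2 ratios below 0, with a median of -0.41. Of all 13307 genes, 7299 lay below 0. Of the 14, 1 fell past 1.5-fold (7.14%, against 0.744% of all genes) and none rose. Hist1h3a, the one that fell, had 108 CPM with p53 siRNA and 164 CPM in the control library (-0.59). Hist1h1a, a linker histone, had 480 CPM with p53 siRNA and 703 CPM in the control library (-0.55). Near-identical copies share reads in these clusters, and the transcripts mostly lack a poly(A) tail, so single members are uncertain.

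Proliferation genes did not pass the fold, which 1.13% of all genes did, so in lists of this size none is near that share. Among 27 mitosis genes none fell or rose, the median log2 ratio was 0.17, and 25 were above 0. Cenpf, a kinetochore protein, had 87.6 CPM with p53 siRNA and 61.7 CPM in the control library (0.50), and Mki67, the proliferation marker Ki-67, had 289 CPM with p53 siRNA and 232.3 CPM in the control library (0.31). Among 32 DNA replication genes none fell or rose, with a median of 0.04. Ccne2, cyclin E2, came closest to the threshold, at 46.8 CPM with p53 siRNA and 31.0 CPM in the control library (0.58). Its plain CPM ratio was 1.51, and only on the (CPM + 1) scale did it stay within the fold.

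Genes reported in the literature as raised by mutant p53 were checked as a list, since the line carries a mutant allele. On the (CPM + 1) scale none of the 28 fell or rose past 1.5-fold, where 1.13% of all genes did, so in a list of this size none is near that share. Of the 28, 15 were below 0 and 13 above, against 7299 and 6008 of all genes. The median log2 ratio was -0.02. It was 0.01 with TMM scaling, 0.02 with DESeq2 size factors and 0.07 with GC and length trends removed. Ccne2, given above at 0.58 and with a plain CPM ratio of 1.51, had the largest change of the list. The histone methyltransferase Kmt2a had 71.2 CPM with p53 siRNA and 98.8 CPM in the control library (log2 ratio -0.47). Kmt2d had 59.7 CPM with p53 siRNA and 79.6 CPM in the control library (-0.41), and the acetyltransferase Kat6a had 94.9 CPM with p53 siRNA and 120 CPM in the control library (-0.33). Pla2g16, a phospholipase, had 7.89 CPM with p53 siRNA and 8.94 CPM in the control library (-0.16). Myc had 247 CPM with p53 siRNA and 315 CPM in the control library (-0.35).

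Sterol synthesis genes, another set reported for mutant p53, were at or above the control level. None of the 23 that passed of 24 listed genes fell or rose past the fold, against 1.13% of all genes, so in a list of this size none is near that share. The median log2 ratio was 0.21, and 22 were above 0. Mvd, a mevalonate pathway enzyme, had 68.2 CPM with p53 siRNA and 45.2 CPM in the control library (0.58), and Hmgcs1 had 240 CPM with p53 siRNA and 183 CPM in the control library (0.38). The plain CPM ratio of Mvd was 1.51, and only on the (CPM + 1) scale did it stay within the fold. Proteasome and respiratory chain lists had medians of 0.10 and 0.13, also with no member past the fold, again near the share of all genes.

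Ratios moved with transcript length across the whole transcriptome. The fifth of genes with the shortest transcripts (median length 1172 bases) had a median log2 ratio of 0.07, and the fifth with the longest (median 6686 bases) had -0.10. With this trend and that of GC content removed, the medians were -0.22 for p53 targets, -0.45 for interferon response genes, -0.05 for the stress response list, -0.42 for clustered histones, 0.19 for mitosis and 0.23 for sterol synthesis genes. The counts of fallen members became 8 for p53 targets, 7 for interferon response genes and 5 for the stress response list.

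**Figure D3:**
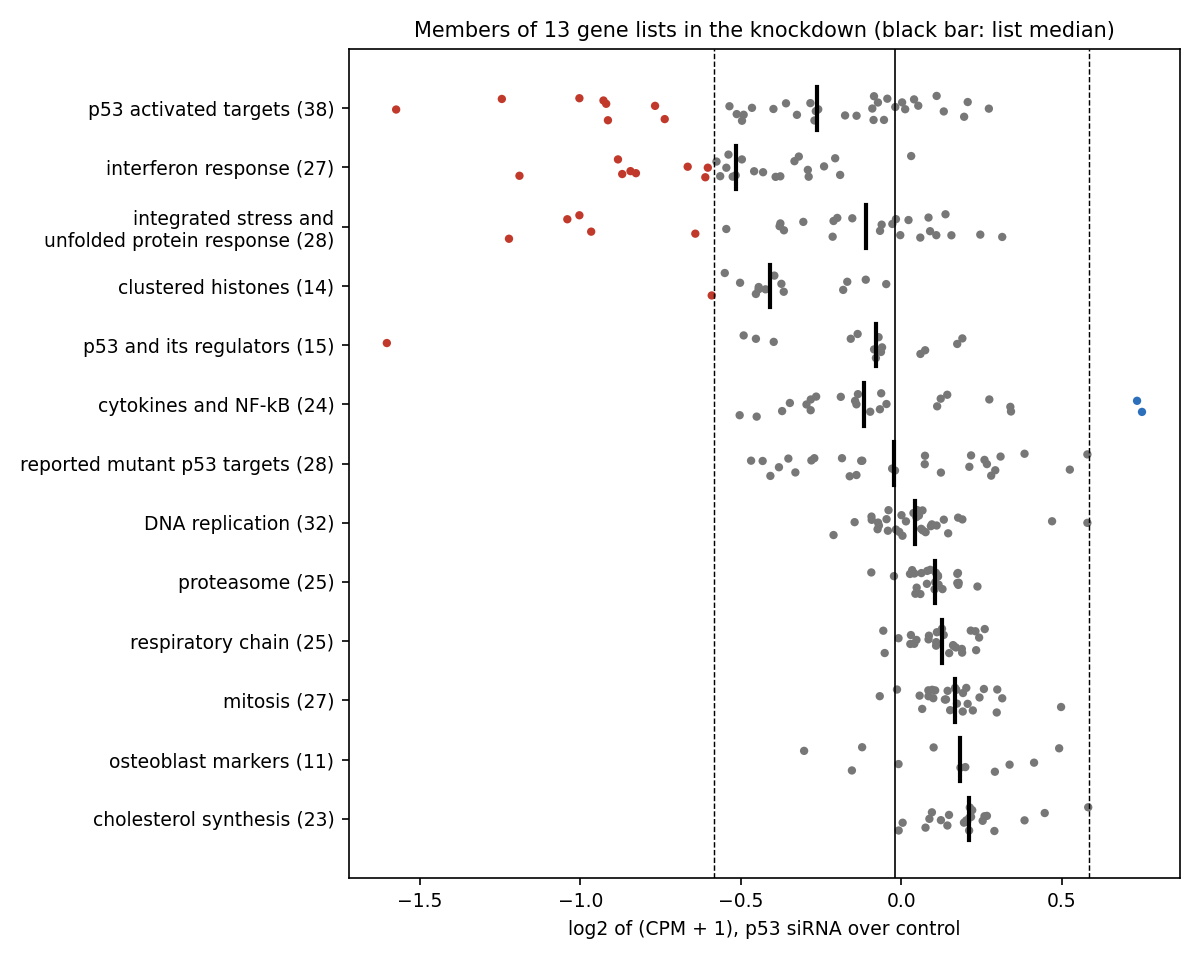
Each point is the log2 ratio of (CPM + 1), p53 siRNA over control, of 1 member of a list that passed the filter, with the number of such members in brackets; red points fell and blue points rose past 1.5-fold (dashed lines), black bars are list medians and the thin line is the median of all genes (-0.02). Red points are mostly in the p53 target, interferon and stress response lists, and the interferon list has the lowest median of those drawn (-0.52).

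The promoter windows of fallen and risen genes were compared with those of all genes that passed. RefSeq windows were found for 68 of the 99 fallen genes, 34 of the 51 risen genes and 9626 genes in all. Shares are of genes with a window, and a gene counts if any of its windows holds the motif. The p53 half-site letters (CATG and CATG with 6 bases between) stood in 1 fallen gene (Cdkn1a, 1.47%), in no risen gene and in 0.322% of all genes. The interferon element (TTTC and TTTC with 2 bases between) stood in 27.9% of fallen, 5.88% of risen and 3.78% of all genes. TGATGNAA stood in 8.82% of fallen, 2.94% of risen and 2.64% of all genes. The last 2 motifs were added after the fallen genes had been seen, so their shares are a description.

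Holders were found inside and outside the gene lists. Of the interferon list 13 of 21 genes with a window held the interferon element (61.9%), among them the fallen genes Ifit3, Ifit1, Cxcl10 and Rsad2. The rest of the 13 were members that did not pass the fold. Mx2, Usp18, Oasl2 and Ifi44, which also fell, lacked the element or had no window. Outside that list the letters also stood in fallen genes known as interferon-induced (Slfn5, Irgm1, Irgm2, Trim30a and Ddx60 among them) and in Pld3, Extl1, Inhbb, Pde1b and the stress response gene Ppp1r15a, and in the risen genes Ifitm2 and Tll1. TGATGNAA stood in 7 of 25 genes with a window of the stress response list (28%), among them the fallen genes Chac1, Atf3 and Trib3. It also stood in the fallen genes Apobec1, Creb5 and Rab39b, which are not on that list. Of 29 genes with a window of the p53 target list, 1 held the p53 half-site letters. Of the motifs chosen without regard to the fallen genes, GGGCGG, the GC box, stood in 48.5% of fallen and 50.0% of risen genes against 69.7% of all. TGAGTCA, the AP-1 core, stood in 11.8% of fallen, no risen and 4.58% of all genes, and GTAAACA, the forkhead core, in 8.82% of fallen, 2.94% of risen and 3.0% of all. CACGTG, the E-box, stood in 14.7% of fallen, 8.82% of risen and 11.99% of all genes. TTTCCCGC, the E2F core, stood in 2.94% of fallen, no risen and 2.47% of all genes. CCGGAA, an ETS core, stood in 14.7% of fallen and 5.88% of risen genes against 32.3% of all, and CCAAT stood in 47.1% of fallen, 44.1% of risen and 43.2% of all genes.

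The 51 risen genes were mostly low in the line, with 30 of them under a mean of 10 CPM. Dpep1, a membrane dipeptidase, had 14.2 CPM with p53 siRNA and 7.37 CPM in the control library, a ratio of 1.92 (1.72 to 2.15). Gas1, a growth arrest gene and Hedgehog coreceptor, was the most abundant named gene to rise, at 201 CPM with p53 siRNA and 119 CPM in the control library (log2 ratio 0.76). Il1rl1, the receptor of interleukin 33, had 79.9 CPM with p53 siRNA and 47.1 CPM in the control library (0.75). Apcdd1, an inhibitor of Wnt signalling, had 16.7 CPM with p53 siRNA and 9.29 CPM in the control library (0.78).

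Further genes rose by the naming rule. Tmem119, a membrane protein of osteoblasts and microglia, had 25.4 CPM with p53 siRNA and 14.4 CPM in the control library (log2 ratio 0.78). Penk, the opioid precursor proenkephalin, had 42.8 CPM with p53 siRNA and 26.1 CPM in the control library (0.69). Mrgprf, Agt, Aldh3a1, Aqp1, Smoc2 and Fibin rose with log2 ratios between 0.62 and 0.81. Serpina3g rose to 27.7 CPM with p53 siRNA, against 16.7 CPM in the control library, but belongs to a family of near-identical genes, so its value is uncertain.

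Clec14a and Prex2, named after their values were seen, were the 2 genes past 2-fold. Clec14a, an endothelial lectin, had 3.08 CPM with p53 siRNA and 0.718 CPM in the control library, and passed the filter through the siRNA library alone. Prex2, an exchange factor for Rac, had 5.09 CPM with p53 siRNA and 1.98 CPM in the control library. Other endothelial markers were near 0: 1 of 8 passed the filter (Kdr, at 2.48 CPM with p53 siRNA and 1.83 CPM in the control library), and Tie1 had no count in either library. mt-Co3 and mt-Nd6 rose with log2 ratios of 0.70 and 0.64. mt-Co1, within the fold, had 5939 CPM with p53 siRNA and 5525 CPM in the control library. mt-Nd4 and mt-Rnr1, also within the fold, were lower with p53 siRNA, with log2 ratios of -0.31 and -0.27. Of the 12 mitochondrially encoded genes that passed of 15 listed, 7 lay above 0 and 5 below, and 2 rose, against 0.383% of all genes. Nuclear copies of mitochondrial sequence make single mitochondrial genes uncertain.

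Cytokine genes split. Of 24 NF-kB and cytokine genes that passed of 26 listed, none fell and 2 rose, Il1rl1 and the chemokine Ccl20. Of all genes, 0.744% fell and 0.383% rose. The median log2 ratio of the 24 was -0.12. Il6 had 86.9 CPM with p53 siRNA and 112.7 CPM in the control library (-0.37). Lif had 31.6 CPM with p53 siRNA and 45.2 CPM in the control library (-0.50), and Cxcl5 had 302 CPM with p53 siRNA and 249 CPM in the control library (0.27).

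Markers of bone-forming cells were measured in both libraries, though not all of them. Of 17 osteoblast markers 11 passed the filter and none fell or rose, against 1.13% of all genes, so in a list of this size none is near that share. The median log2 ratio was 0.18. Sp7, which encodes osterix, a master factor of osteoblasts, had 21.6 CPM with p53 siRNA and 15.1 CPM in the control library (0.49). Alpl, alkaline phosphatase, had 248 CPM with p53 siRNA and 186 CPM in the control library (0.41), and Runx2 had 42.3 CPM with p53 siRNA and 52.4 CPM in the control library (-0.30). Markers of mature osteoblasts and osteocytes were under the filter: Bglap had 0.150 CPM with p53 siRNA and 0.25 CPM in the control library, Ibsp had 0.354 CPM with p53 siRNA and 0.140 CPM in the control library, and Mepe had no count in either.

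Markers of contractile cells were lower with p53 siRNA. All 7 of the 8 pericyte and smooth muscle markers that passed the filter had log2 ratios below 0, against 7299 of all 13307 genes. The summed level over the 8 genes was 785 CPM with p53 siRNA and 1036 CPM in the control library. Of the 7, Myh11 and Cnn1 fell (28.6%, against 0.744% of all genes). They had 1.81 and 7.08 CPM with p53 siRNA, against 4.79 and 13.05 CPM in the control library. The mean over both libraries was 3.30 CPM for Myh11, under the level of the naming rule, and 10.1 CPM for Cnn1. Acta2, smooth muscle actin, had 763 CPM with p53 siRNA and 1000.4 CPM in the control library (-0.39). Fibroblast markers lay the other way: 7 of 9 passed the filter, all above 0, against 6008 of all 13307 genes. Of the 7, 1 rose, where 0.383% of all genes did. It was Dpt, at 5.06 CPM with p53 siRNA and 2.43 CPM in the control library. In bulk RNA fewer cells of a type and less RNA per cell cannot be told apart, and the part of these markers in the other results was not tested.

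The tumours of the same allele gave a second view of the genes. Trp53 had 57.5, 74.0 and 61.9 CPM in the R245W tumours, and 13.5, 26.98, 22.2 and 18.01 CPM in the p53 het tumours. Every R245W tumour lay above every p53 het tumour, with means of 64.5 ± 8.54 CPM (SD, n = 3) and 20.2 ± 5.75 CPM (SD, n = 4). A two-sided exact permutation test, on log2 CPM, gave p = 0.0571, the smallest that the 35 splits of these tumours allow. In edgeR's quasi-likelihood test over all genes and all 18 tumours the log2 fold was 1.57 ± 0.30 (SE) with a Benjamini-Hochberg adjusted p of 0.0744. The siRNA library, at 30.6 CPM, lay above the highest p53 het tumour and below the lowest R245W tumour; levels in cultured cells and in whole tumours differ in the cells they sample.

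Cdkn1a was higher in every one of these tumours than in the line. It had 62.0, 102 and 94.3 CPM in the R245W tumours, and 19.8, 60.9, 31.2 and 36.4 CPM in the p53 het tumours. The groups did not overlap, but the adjusted p of edgeR's quasi-likelihood test was 0.351. All 7 tumours were above both libraries of the line, at 3.65 CPM with p53 siRNA and 12.9 CPM in the control library. Mdm2 had 49.1, 57.8 and 49.5 CPM in the R245W tumours and 51.4, 48.4, 57.9 and 34.5 CPM in the p53 het tumours, and the groups overlapped.

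Interferon and stress response genes were also looked at in the tumours, where the lists as a whole were not counted. An interferon gene and 2 stress response genes are given in full. Ifit3 had 17.2, 9.56 and 16.1 CPM in the R245W tumours, and 20.9, 93.7, 27.8 and 43.2 CPM in the p53 het tumours (log2 fold -1.84 ± 0.99, SE; adjusted p = 0.461 in edgeR's quasi-likelihood test). Chac1 had 7.18, 8.79 and 8.22 CPM in the R245W tumours, and 26.3, 35.3, 7.59 and 18.6 CPM in the p53 het tumours (log2 fold -1.56 ± 0.75; adjusted p = 0.403 in the same edgeR test). Sesn2 had 20.5, 26.1 and 26.1 CPM in the R245W tumours, and 54.5, 71.0, 26.02 and 40.2 CPM in the p53 het tumours (adjusted p = 0.269, edgeR). All 3 R245W tumours lay below all 4 p53 het tumours for Ifit3, and also for Ifit1. The groups overlapped for Chac1 and Sesn2, and also for Mx2, Cxcl10, Atf3 and Trib3. Atf3 hardly differed (log2 fold -0.06 ± 0.60, SE, adjusted p = 0.976 in edgeR's quasi-likelihood test). None of these differences passed the threshold of 0.05.

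**Figure D4:**
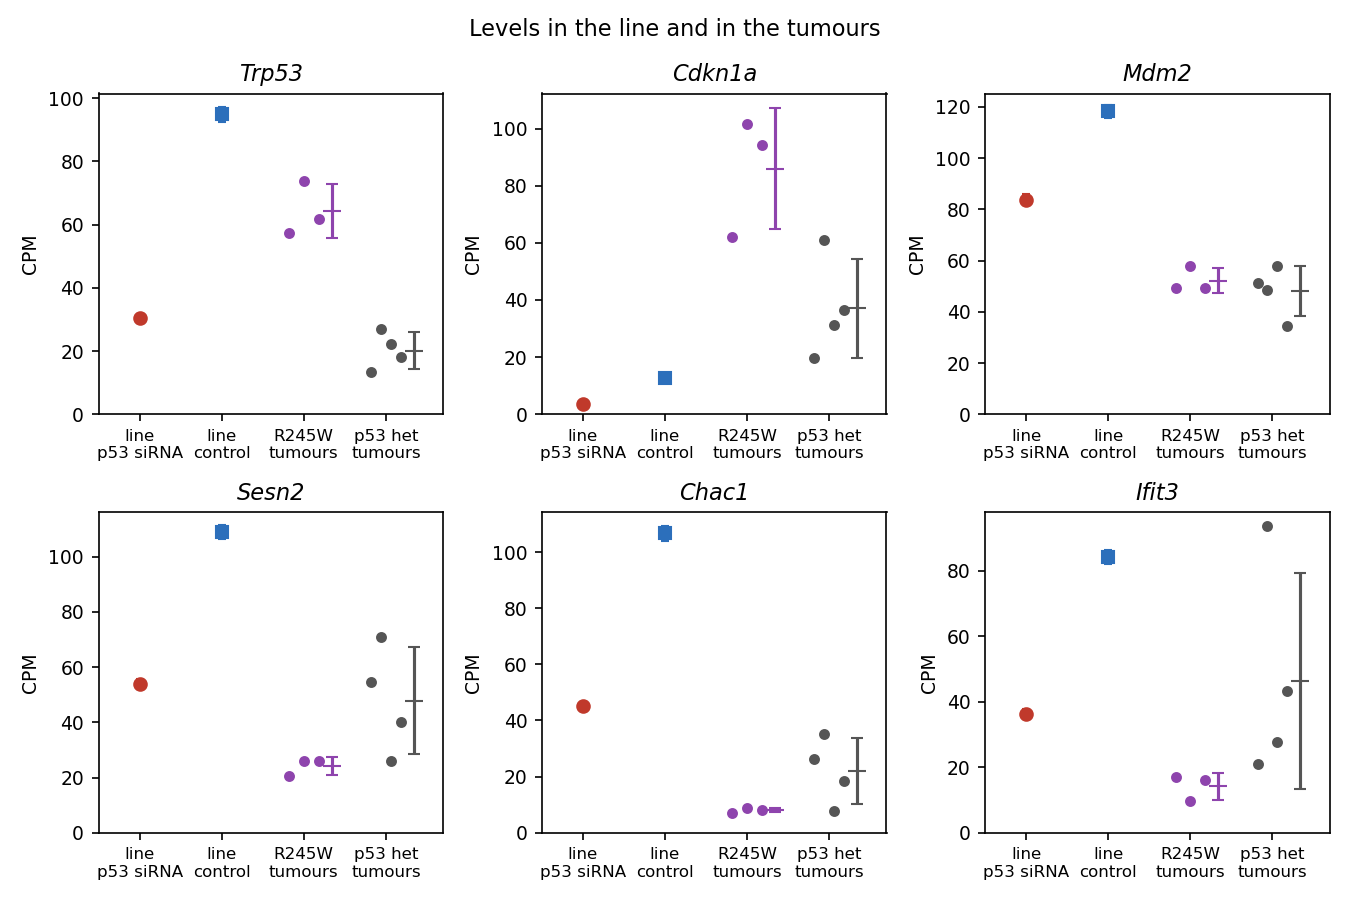
CPM of 6 genes in the p53 siRNA library and the control library of the line (with 95% Poisson intervals) and in the R245W (n = 3) and p53 het tumours (n = 4), as single tumours with the mean and SD beside them. Trp53 is high in the control library and in R245W tumours, while Cdkn1a is higher in all 7 tumours than in the line. Ifit3 and Chac1 are higher in both libraries of the line than in any R245W tumour.

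Few genes called in the tumour contrast could be followed in the knockdown. In edgeR's quasi-likelihood test of R245W against p53 het tumours 15 of 20616 genes passed an adjusted p of 0.05 (0.0728%), 7 higher (0.034%) and 8 lower (0.0388%). Of these, 6 of the higher and 3 of the lower genes passed the filter of the line. None of the 9 was past 1.5-fold in the knockdown, against 1.13% of all genes. Among so few genes none is near that share, so the lack of overlap is no result about them. The median knockdown log2 ratios of the 9 were 0.14 for the genes higher and 0.13 for the genes lower in R245W tumours. For all 12994 genes tested in both the median was -0.02. Most of the higher genes were processed pseudogenes, whose reads may belong to the parent gene. Foxo1, a transcription factor held back by insulin signalling, was the 1 protein-coding gene among the 7: it was higher in R245W tumours (log2 fold 2.14, adjusted p = 0.0305 in edgeR), and had 9.80 CPM with p53 siRNA and 11.9 CPM in the control library of the line (log2 ratio -0.25). The count depended on the tool and on single tumours: DESeq2 called 371 genes, and edgeR called 5 without R245W tumour 1, 8 without p53 het tumour 3, 29 without p53 het tumour 1 and 30 without p53 het tumour 2.

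Read from the line, 97 of the 99 fallen genes were tested in the tumours; 34 were higher and 63 lower in R245W than in p53 het tumours, none of them called. Over all 12994 genes tested in both, 5717 were higher, 7277 lower and 9 called. The median tumour log2 fold of the fallen genes was -0.22, against -0.06 for all genes tested in both. The lowest adjusted p among the fallen genes was that of Trp53 (0.0744, edgeR's quasi-likelihood test). Of the 51 risen genes 48 were tested, with 12 higher, 36 lower, none called and a median of -0.46. Of the 15 named genes with the lowest knockdown ratios, Trp53 and Apobec1 had a positive tumour log2 fold (1.57 and 0.24).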

How the data were processed

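Total RNA was sequenced from 18 tumours and 2 libraries of cell line 14. Per the submitters' processing notes, reads were aligned to GRCm38 with STAR 2.6.0b and groups compared with DESeq2. The authors deposited raw counts per gene ID (49585 IDs); 49326 matched a GENCODE M21 symbol. The counting program, its annotation and strand setting are not given in the sources used here, and depth was 20.1 to 29.2 M counts (megacounts) per tumour and 73.4 M (p53 siRNA) and 64.1 M (control) in the line.

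For the line, log2 ratios of (CPM + 1) were taken over library totals among genes with a mean of at least 1 CPM, and past 1.5-fold was called. Intervals are exact conditional (Clopper-Pearson) 95% intervals. Tumours were fitted in R 4.3.3 with edgeR 4.0.16 (TMM, filterByExpr, quasi-likelihood, 1 mean per genotype, Benjamini-Hochberg). The labels do not say that tumours came from separate mice, so p-values measure only the spread between these samples. Scripts were tested on simulated data. Named were Trp53, Cdkn1a and Mdm2, the 15 lowest and highest ratios with a mean of at least 10 CPM, and up to 4 members of a list; others stand where values near them were of interest. The 41 gene lists, members and tests were chosen with earlier results of these data known. Alternatives were other scalings, pseudocounts, filters and folds, DESeq2 1.42.0, and left-out tumours.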

Additional observations from a re-analysis of the deposited data

Results flagged for a closer look

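Of 14 genes looked at in the 4 p53 het tumours, 2 had a tumour far from the other 3; chance alone sets 1 tumour apart in about 1 of 20 such groups. Gadd45a had 3.35 CPM in p53 het tumour 1, against 4.83 to 5.07 CPM in the others. Cxcl10 had 45.8 CPM in p53 het tumour 2, against 7.37 to 13.1 CPM in the others. Most of the 14 genes were chosen for large knockdown ratios, so that both of these fell in the knockdown is no link to the tumours. Neither difference between R245W and p53 het tumours passed edgeR's test (adjusted p = 0.967 for Gadd45a and 0.471 for Cxcl10).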

How the results depend on the processing

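No paired analysis was possible because the line has 1 library per condition and the tumours' replicate numbers follow accession order. The counts of genes past the fold depended on the pseudocount and filter. With a pseudocount of 0.1 CPM 251 genes fell and 125 rose; with 5 CPM 34 fell and 10 rose, with 4 fallen p53 targets, 5 fallen interferon genes and a Trp53 log2 ratio of -1.49. With a mean of at least 10 CPM 52 fell and 21 rose, with 3 fallen p53 targets. At 2-fold 15 fell and 2 rose, with 3 p53 targets, 1 interferon gene and 3 stress response genes. TMM scaling, DESeq2 size factors, totals without mitochondrial and non-polyadenylated genes, and removal of GC and length trends, an alternative chosen after seeing the data, kept these counts within 1.5 times. DESeq2 called 371 genes in R245W against p53 het tumours, 216 of them lower and 14 shared with edgeR's 15. With p53 het tumours 1 and 2 alone 9 were called, and leaving out 1 tumour gave 5 to 30. The median knockdown ratio of genes higher in R245W tumours was -0.079 by DESeq2 and -0.045 to 0.145 with 1 tumour left out. That of the lower genes was 0.044 by DESeq2, 0.035 with no low-count filter, -0.063 with p53 het tumours 1 and 2 alone and -0.063 to 0.123 with 1 tumour left out. These medians rest on few genes, and the cause of these shifts was not tested. Of 876 alternative values of 146 named genes 726 moved by less than the counting error, 150 moved by more and none changed sign past the fold. Depth limits genes near 1 CPM, where an interval spans a wide range of ratios; no depth replaces a second culture.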
